A study of Bos taurus with 10 samples.

Results

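Translation factors are the proteins that bring ribosome, mRNA and charged tRNA together. On the Affymetrix bovine array they were taken here as all probe sets with 1 annotated gene symbol that names a eukaryotic initiation factor (EIF), an elongation factor (EEF, with EEFSEC), a release or rescue factor (ETF1, GSPT1, GSPT2, HBS1L), or the related BZW1, BZW2 and DENR. This gave 78 of the 24016 probe sets tested, for 58 of the 9155 genes named on the array. Of the 58 genes, 19 had more than 1 probe set, and all of them are described, with the varying probe sets of such a gene lettered A and B from the higher to the lower mean. A further 6 probe sets read EEF1A1 and EIF4E from the 3′ end, the middle and the 5′ end as quality controls of the array, and they are given as values outside the test.

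Translation starts when the eIF4F complex finds the cap of the mRNA through eIF4E, and a ternary complex of eIF2, GTP and initiator tRNA is carried to the start codon on a small ribosomal subunit held by eIF3, eIF1 and eIF1A. After each start, eIF2 must be recharged with GTP by eIF2B. The eIF2 kinases, the eIF4E-binding proteins and EEF2K are classical brakes on different steps of translation. A growing oocyte stores mRNA and then matures to the second metaphase, and much of the control over which stored mRNAs are translated and which are removed acts on the mRNA itself. How far transcription goes on during maturation is debated.

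Immature oocytes were taken from bovine follicles of 3 to 8 mm on abattoir ovaries and denuded at 0 h. IVM oocytes were matured inside their cumulus for 24 h at 39°C in TCM-199 to which epidermal growth factor (10 ng/ml) and 10% fetal calf serum were added, and then denuded. There were 5 arrays per group, each from a pool of oocytes of 1 day of collection, and 100 ng of total RNA per pool passed through 2 rounds of amplification primed from the poly(A) tail. Breed, age and the number of cows in a pool are not given in the sources used here. The p-values therefore measure the spread between such pools. Only the IVM oocytes were matured, and this was done in culture. With a fixed amount of RNA, every value is relative to the rest of the RNA in its pool.

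Each array's median value was close to the others', at 7.04 to 7.10 on the log2 scale. The poly-A transcripts added to the RNA were higher on the IVM arrays by 0.94 (7.02 ± 0.15 and 7.95 ± 0.20, SD, n = 5 and 5; two-sided exact permutation p = 0.00794, the smallest possible), and centring on them would lower every IVM difference by that amount. The transcripts added at hybridization differed by 0.90 (10.02 ± 0.73 and 10.92 ± 0.19, two-sided exact permutation p = 0.0556), with immature replicates 1 to 3 at 9.38 to 9.73 and the other 7 arrays at 10.75 to 11.22. IVM replicate 4 stood farthest from its group, with a mean correlation of 0.933 across probe sets. Of 8 oocyte markers on the array, 2 fell in limma at an adjusted p under 0.0001 (NLRP5, -4.03, and ZP3, -3.78). The share over all varying probe sets was 12.1%. At 0.05, 5 were lower, GDF9 (-4.42) among them, and 1 was higher (KPNA7, 0.37), against 31.7% and 34.0%. BMP15 (0.19) and MOS (0.14) overlapped. The mean level of the 8 was 12.69 to 13.21 on the immature and 10.29 to 11.66 on the IVM arrays. Of 22 cumulus and granulosa markers, 17 varied and 1 rose (TNFAIP6 by 10.86). The other varying markers did not pass at 0.0001 and had differences of both signs. At 0.05, 7 of the 17 genes were higher, VCAN (3.73 to 4.31) among them, and 1 was lower. The shares over all varying probe sets were 34.0% and 31.7%. PTX3 (6.38) and COL4A1 (2.20 and 3.38) were higher on every IVM array, and CYP19A1 (-1.38) was lower with its varying probe set. VIM (-2.51), FST (-1.79) and INHA (-0.91) had negative differences with overlapping arrays. The mean level of the list, which mixes these directions, was 7.28 to 9.40 on the immature and 8.63 to 10.82 on the IVM arrays. FOXL2, LHCGR, CD44, COL1A2 and NR5A2 hardly varied, as did all 8 blood and immune markers on the array. The part of these shifts in the results below was not tested, and fewer cells of a type, less RNA per cell and a shorter poly(A) tail cannot be told apart in such pools.

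Of the 78 probe sets, 57 varied, which means that their 10 values spanned at least 0.01, or 73.1% against 39.4% of all probe sets tested. They belonged to 51 genes. The probe sets of EIF4G1, EIF4H, EIF2A, EIF3E, EEF1A2, EEF1AKMT3 and EEF2KMT all hardly varied, so nothing about these 7 genes can be read from the array. EIF1, EIF2AK2, EIF2B3, EIF2S3, EIF3A, EIF4A3, EIF4E3, EIF4G3, DENR, EEFSEC and EEF2K each had a further probe set that hardly varied. Values given below for these genes come from their varying probe set alone.

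Transcripts of 8 factors fell in IVM oocytes and those of 2 rose, at an adjusted p under 0.0001 in limma. EIF6, EIF4E2 (probe set A), EIF1AD, EIF3J and 3 of the eIF2B subunits fell, with differences from -3.16 to -1.81 on the log2 scale. EIF4E fell by 0.69, and BZW2 and EIF4G3 rose by 2.24 and 1.66. Probe set B of EIF4E2 was higher on every IVM array, by a difference of 0.88 that did not pass. The calls were 10 of the 57 varying probe sets, against 14.5% of all varying probe sets and 5.78% of all tested. In the lower direction 12.1% of all varying probe sets passed (4.81% of all tested), and in the higher direction 2.38% (0.974% of all tested), so the members' calls were close in number to the share of varying probe sets in each direction, and above the share of all tested, of which fewer vary. At the looser adjusted p of 0.05, 23 varying members were lower and 17 higher, against 31.7% and 34.0% of all varying probe sets (65.7% in either direction). The median difference of the varying members was -0.38 against 0.18 for all varying probe sets, and 31 of the 57 differences were negative.

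All IVM arrays lay below all immature arrays for 21 of the 57 and above them for 15, against 29.3% and 27.0% of all varying probe sets (56.3% in either direction). In the plot of differences by role, the values were negative for all 4 varying probe sets of eIF2B and for 10 of 12 of eIF3, and positive for all 4 of the eIF2 kinases. With replicate number as a block and all probe sets in the fit, no member passed, and 0 of all 24016 passed. The smallest adjusted p of a member was 3.99e-04, and 52 of 78 had an unadjusted p under 0.05. The same block over varying probe sets gave 7 lower and 3 higher members, of which 9 were among the calls above, against 9.83% and 1.82% of all varying probe sets. Without the block, a fit over varying probe sets gave 16 lower and 5 higher (background 17.8% and 7.24%), and with immature replicates 4 and 5 alone it gave 3 lower and 0 higher (background 3.97% and 0.0423%).

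**Figure D1:**
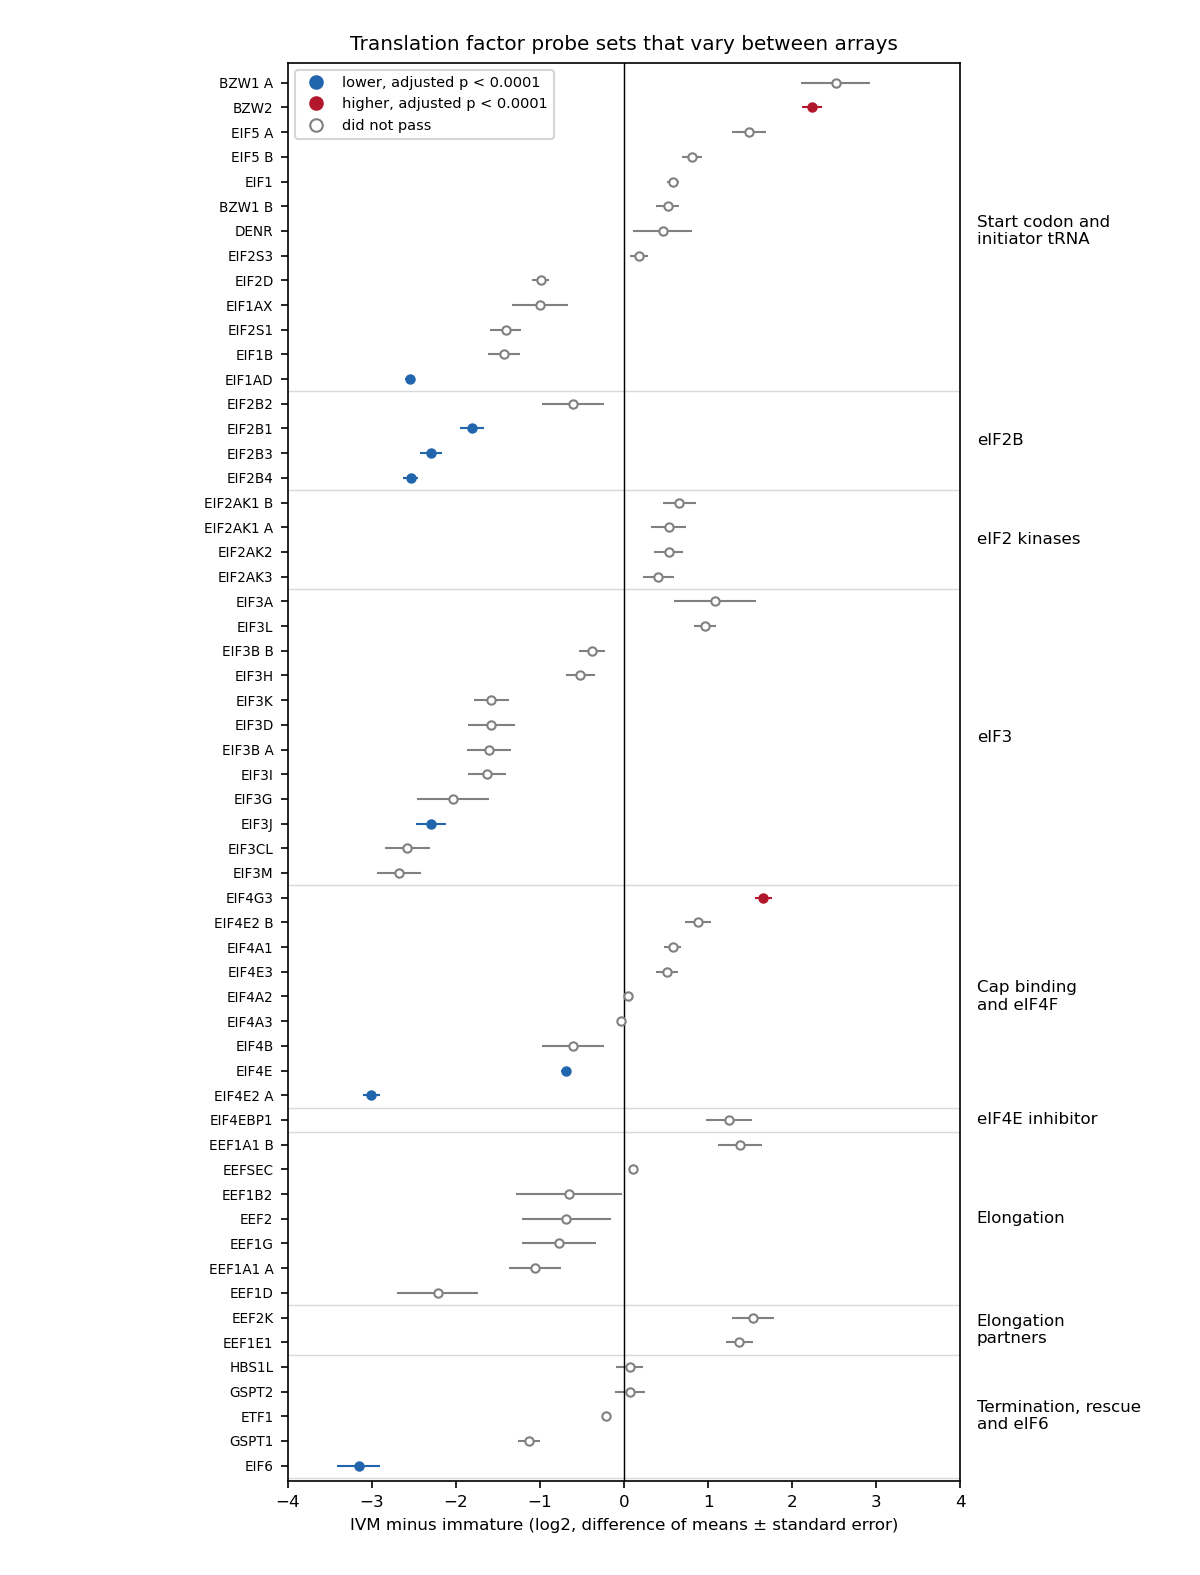
Differences between IVM and immature oocytes (x axis, log2, mean difference ± standard error, n = 5 and 5 arrays) for the 57 varying translation factor probe sets (y axis), grouped by role. Filled points passed at an adjusted p under 0.0001, 8 lower and 2 higher, and centring on the poly-A transcripts would move every point to the left by 0.94, which turns the 16 points between 0 and 0.88.

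Transcripts for most of the measured subunits of the exchange factor eIF2B, which returns eIF2 to its GTP form, were lower in IVM oocytes. EIF2B5 had no probe set among the members, and the protein complex was not measured. EIF2B1, EIF2B3 and EIF2B4, the alpha, gamma and delta subunits, fell, and EIF2B2, the beta subunit, did not pass. EIF2B4 read 11.15, 11.23, 11.31, 11.21 and 11.29 on the immature arrays and 8.88, 8.81, 8.63, 8.39 and 8.80 on the IVM arrays. Its groups lay far apart with little spread within either, and it fell by 2.54 (SE 0.09, 5.80-fold, adjusted p = 4.09e-07). EIF2B3 read 8.82, 9.03, 9.00, 8.66 and 8.93 in immature and 6.70, 6.77, 6.16, 6.77 and 6.52 in IVM oocytes. It fell by 2.30 (SE 0.13, 4.94-fold, adjusted p = 5.16e-06) with its varying probe set, while the other hardly varied. EIF2B1 read 9.17, 9.08, 8.82, 8.81 and 9.16 in immature and 7.33, 7.16, 7.17, 6.81 and 7.51 in IVM oocytes, and EIF2B1 fell by 1.81 (SE 0.14, 3.50-fold, adjusted p = 2.74e-05). For all 3 subunits the highest IVM array lay more than 1 log2 unit below the lowest immature array.

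EIF2B2 was different in its spread. It read 8.81, 8.20, 8.81, 8.92 and 8.67 in immature and 7.32, 8.37, 8.19, 9.17 and 7.32 in IVM oocytes, so that IVM replicate 4 was the highest of all arrays and the groups overlapped. Its difference was -0.61 (SE 0.37, adjusted p = 0.282), and -0.88 without IVM replicate 4. EIF2B1 passed in 2 of the 10 fits that each left out 1 array, whereas EIF2B3 and EIF2B4 passed in all 10.

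Of eIF2 itself, the alpha subunit EIF2S1, which the eIF2 kinases phosphorylate, read 10.31, 10.23, 10.20, 10.54 and 10.34 in immature and 8.57, 9.11, 8.89, 9.46 and 8.52 in IVM oocytes. All IVM arrays lay below all immature arrays, but the difference of -1.41 (SE 0.18) did not pass at 0.0001 (adjusted p = 5.83e-04). The gamma subunit EIF2S3, which binds GTP and the initiator tRNA, overlapped between the groups (0.18, SE 0.11, adjusted p = 0.315). Its second probe set hardly varied. The 3 kinases on the array, EIF2AK1 (the haem-regulated kinase), EIF2AK2 (PKR, which is activated by double-stranded RNA) and EIF2AK3 (PERK, the kinase of the endoplasmic reticulum), had differences of 0.41 to 0.66 over 4 varying probe sets, which became -0.53 to -0.27 when centred on the poly-A transcripts. None of the 4 passed in limma, and 3 had an unadjusted p under 0.05. For the varying probe set of EIF2AK2 all IVM arrays (6.37 to 7.33) lay above all immature arrays (6.10 to 6.26), while the other kinases overlapped. The gap between the EIF2AK1 probe sets shifted by -0.13 (two-sided exact permutation p = 0.0476, 0.0563 after Benjamini-Hochberg adjustment over the 13 pairs of probe sets compared here).

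EIF5 is the GTPase-activating protein of eIF2, and the BZW proteins carry a related domain and compete with it. Of these genes BZW2 rose, while EIF5 and BZW1 did not pass. BZW2 read 8.19, 8.18, 8.31, 7.99 and 8.23 in immature and 10.30, 10.33, 10.82, 10.41 and 10.22 in IVM oocytes. It rose by 2.24 (SE 0.12, 4.71-fold, adjusted p = 3.06e-06), passed in all 10 fits that left out 1 array, and still rose by 1.30 when centred on the poly-A transcripts. BZW1 had a pair of probe sets that did not agree in size.

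BZW1 probe set A read 7.36, 7.96, 7.40, 7.85 and 7.70 in immature and 9.87, 10.40, 9.65, 11.59 and 9.33 in IVM oocytes. Its difference of 2.52 was as large as that of BZW2, but the IVM arrays were spread more widely, with replicate 4 on top, and it did not pass at 0.0001 (SE 0.41, adjusted p = 0.00199). Probe set B differed by 0.52 (SE 0.14, adjusted p = 0.0256), and by -0.42 when centred on the poly-A transcripts. The gap between these probe sets, taken within each array, differed by 2.0 between the groups (exact permutation p = 0.00794, adjusted 0.0115). Between BZW2 and BZW1 probe set A the within-array gap changed by -0.28, with arrays overlapping (exact permutation p = 0.603, adjusted 0.653).

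EIF5 had a positive difference with both of its probe sets, and neither passed at 0.0001. Probe set A read 11.15, 10.78, 11.25, 10.87 and 10.81 in immature and 12.35, 12.25, 12.92, 11.99 and 12.81 in IVM oocytes, a difference of 1.49 (SE 0.20, adjusted p = 6.30e-04). Probe set B differed by 0.81 (SE 0.12, adjusted p = 0.00145), which turned to -0.13 when centred on the poly-A transcripts. All IVM arrays lay above all immature arrays in each, and the within-array gap between A and B shifted by 0.68 (exact permutation p = 0.0159, adjusted 0.0206).

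**Figure D2:**
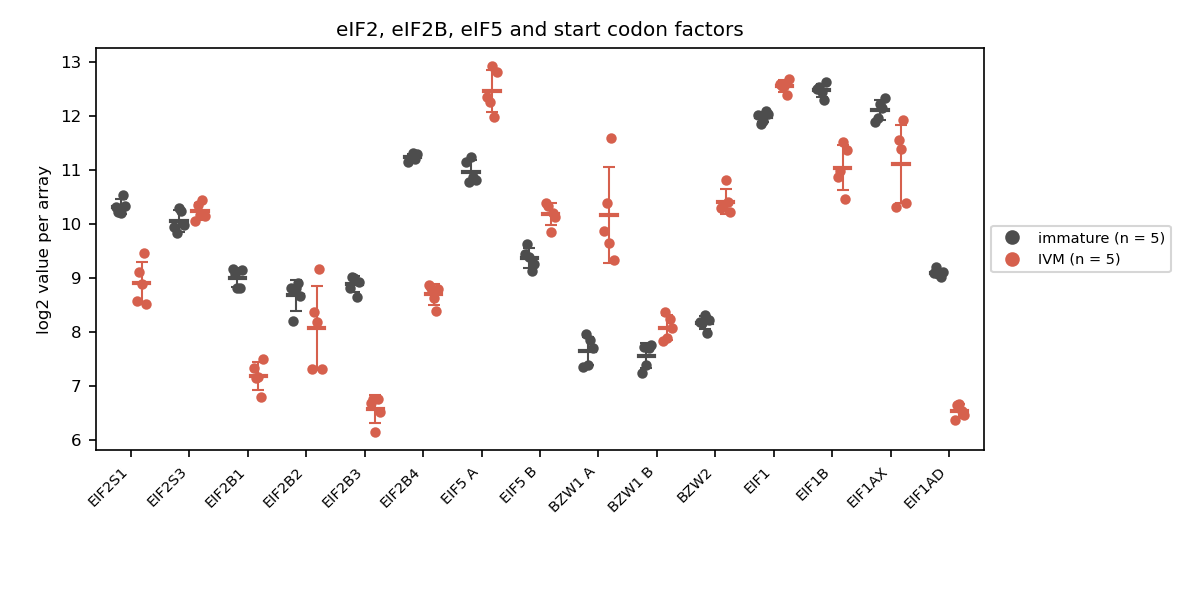
Values per array (y axis, log2) of eIF2 and eIF2B subunits, EIF5, BZW1, BZW2, EIF1, EIF1B, EIF1AX and EIF1AD (x axis) in immature (grey, n = 5) and IVM oocytes (red, n = 5), with bars for the mean ± SD. Levels of different probe sets are not comparable, and the groups lie apart in opposite directions for EIF2B4 (11.24 against 8.70) and BZW2 (8.18 against 10.42).

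Of EIF1, EIF1B, EIF1AX and EIF1AD, EIF1AD alone passed. EIF1AD, named for a domain it shares with eIF1A, had the smallest adjusted p of all translation factors. It read 9.09, 9.20, 9.07, 9.02 and 9.12 in immature and 6.37, 6.65, 6.68, 6.55 and 6.47 in IVM oocytes. No array strayed from its group, and EIF1AD fell by 2.55 (SE 0.06, 5.88-fold, adjusted p = 6.80e-08). EIF1AX, a gene for eIF1A itself, had a difference of -1.0 with overlapping arrays (SE 0.33, adjusted p = 0.0522).

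EIF1, which guards the choice of start codon, read 12.02, 11.86, 11.90, 12.10 and 12.03 in immature and 12.60, 12.56, 12.56, 12.39 and 12.69 in IVM oocytes. Its close relative EIF1B read 12.50, 12.53, 12.44, 12.29 and 12.62 in immature and 10.88, 10.99, 11.51, 10.46 and 11.37 in IVM oocytes. Neither pair of groups overlapped, and the differences were 0.58 for EIF1 (SE 0.07, adjusted p = 2.61e-04) and -1.43 for EIF1B (SE 0.19, adjusted p = 6.94e-04), neither of them past 0.0001. The within-array gap between EIF1 and EIF1B shifted by 2.01 (exact permutation p = 0.00794, adjusted 0.0115). EIF1 was higher and EIF1B lower on every IVM array, so this p could only be the smallest possible and adds no support. Centred on the poly-A transcripts, EIF1 was at -0.36, while the gap is not touched by centring.

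EIF2D and DENR belong to a route that places or removes tRNA on the small subunit without eIF2. EIF2D was lower on every IVM array (7.26 to 7.68) than on any immature array (8.28 to 8.64), by a difference of -0.99 just outside the threshold (SE 0.10, adjusted p = 1.02e-04). DENR overlapped (0.46, SE 0.35, adjusted p = 0.414), with IVM replicates 2 and 4 at 8.27 and 8.81 and the other IVM arrays at 6.86 to 7.85.

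The scaffold eIF3 had negative differences in most of its subunits, with EIF3L and EIF3A positive. Only EIF3J, a loosely bound subunit at the decoding site, passed at 0.0001. At 0.05, 9 of the 12 varying probe sets were lower and 1 was higher, against 31.7% and 34.0% of all varying probe sets, and the median of the 12 was -1.59. All IVM arrays lay below all immature arrays for 8 of the 12, against 29.3% of all varying probe sets.

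EIF3J read 10.71, 10.99, 10.87, 10.79 and 10.86 in immature and 8.16, 8.79, 8.54, 9.07 and 8.14 in IVM oocytes. It fell by 2.30 (SE 0.18, 4.94-fold, adjusted p = 3.46e-05), but it passed in only 1 of the 10 fits that left out an array, the one without IVM replicate 4 (adjusted p from 1.94e-05 to 2.31e-04). EIF3M, a subunit at the edge of the complex, read 12.30, 12.43, 12.44, 12.60 and 12.68 in immature and 9.54, 10.21, 9.84, 10.44 and 9.02 in IVM oocytes. Its difference of -2.68 was larger than that of EIF3J and lay just outside the threshold (SE 0.26, adjusted p = 1.01e-04). EIF3CL, annotated as a copy of the core subunit EIF3C, read 11.68, 11.70, 11.72, 11.49 and 11.47 in immature and 8.43, 9.13, 9.33, 9.82 and 8.47 in IVM oocytes, a difference of -2.58 (SE 0.27, adjusted p = 1.58e-04). Whether this probe set also reads EIF3C was not tested. In all 3 subunits the IVM arrays were several times more scattered than the immature ones.

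The subunits EIF3G (-2.04, SE 0.43, adjusted p = 0.00753), EIF3I (-1.63, SE 0.23, adjusted p = 0.00102), EIF3D (-1.58, SE 0.28, adjusted p = 0.00285) and EIF3K (-1.58, SE 0.21, adjusted p = 6.71e-04) were lower on every IVM array. EIF3D binds the cap of some mRNAs, and EIF3G and EIF3I form a module with EIF3B. EIF3H overlapped (-0.52, SE 0.17, adjusted p = 0.0499). The probe sets of EIF3B, a core subunit, differed by -1.61 (A, SE 0.26, adjusted p = 0.00173) and -0.38 (B, SE 0.15, adjusted p = 0.106), and their within-array gap shifted by -1.23 (exact permutation p = 0.00794, adjusted 0.0115). By its suffix in the array's naming, B can match several transcripts.

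EIF3L, the partner of EIF3K in the complex, was the exception with tight groups. It read 11.25, 11.39, 11.18, 11.22 and 11.45 in immature and 12.31, 12.28, 12.37, 11.82 and 12.51 in IVM oocytes. All IVM arrays lay above, with a difference of 0.96 that did not pass (SE 0.13, adjusted p = 5.80e-04), that passed without IVM replicate 4 (adjusted p = 3.50e-05) and that was 0.03 when centred on the poly-A transcripts. EIF3A, the largest core subunit, read 7.74, 6.73, 8.09, 9.09 and 8.43 in immature and 8.82, 9.36, 8.96, 10.11 and 8.27 in IVM oocytes, which overlapped (1.08, SE 0.49, adjusted p = 0.146).

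In 7 of the 10 eIF3 probe sets with a negative difference, the highest IVM array was replicate 4. Over all varying probe sets with a negative difference this held for 34.7%, and for the translation factors for 19 of 31. Without IVM replicate 4, EIF3CL, EIF3J, EIF3L and EIF3M passed, and EIF3G moved to -2.33 and EIF3D to -1.76. The mean level of the cumulus and granulosa markers was highest on the same array, at 10.82 against 8.63 to 9.91 on other IVM arrays. Single markers differed, with CYP19A1 lowest there (6.10), and the part of these markers in the eIF3 values was not tested.

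**Figure D3:**
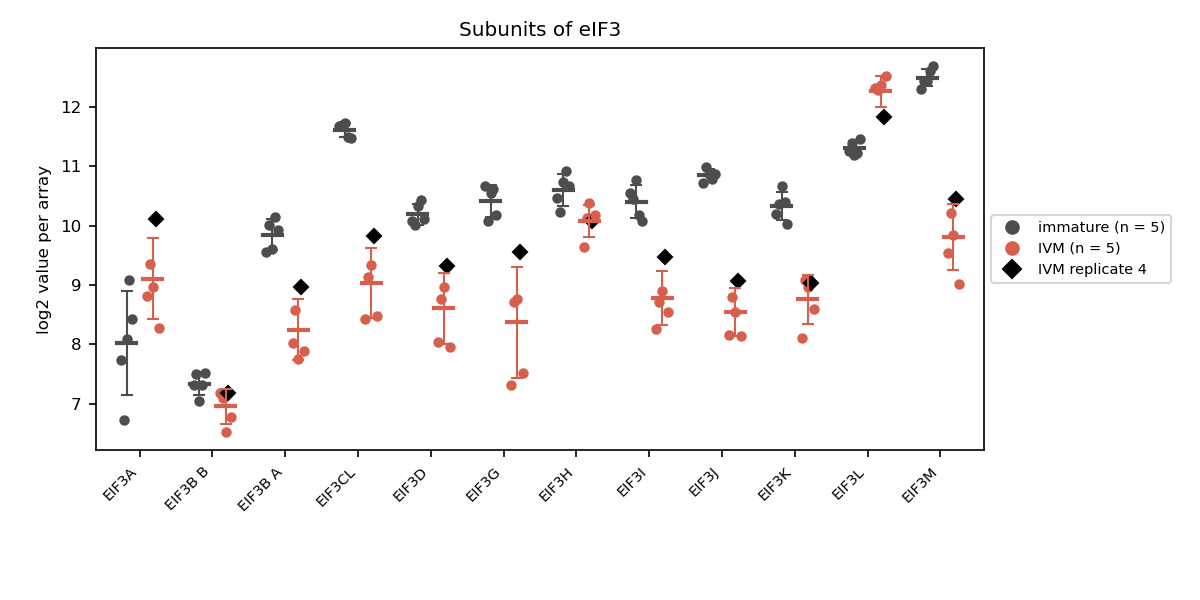
Values per array (y axis, log2) of the varying eIF3 subunit probe sets (x axis) in immature (grey) and IVM oocytes (red, with replicate 4 as a black diamond), with bars for the mean ± SD, n = 5 per group. IVM arrays sit below the immature ones for 8 of 12 probe sets (29.3% of all varying probe sets), IVM replicate 4 is the highest of its group in 8 (37.1% of all varying probe sets), and EIF3L (11.30 against 12.26) lies the other way.

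Among the factors at the cap, EIF4E fell by a small amount, EIF4G3 rose, and EIF4E2 gave opposite answers with its probe sets. EIF4E, which binds the cap, read 11.60, 11.82, 11.68, 11.61 and 11.62 in immature and 11.10, 11.02, 10.90, 10.98 and 10.88 in IVM oocytes. It fell by 0.69 (SE 0.06, 1.61-fold, adjusted p = 4.29e-05), with adjusted p from 7.06e-05 to 2.68e-04 when arrays were left out in turn, 2 of the 10 past the threshold. The quality probe sets of EIF4E gave differences of -0.74 at the 3′ end and -0.79 in the middle, while the one at the 5′ end hardly varied. The gap between the first 2 did not differ detectably between the groups (0.05, exact permutation p = 0.849, adjusted 0.849).

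EIF4E2, also called 4EHP, binds the cap without recruiting eIF4G and represses the mRNA it holds. Its probe set A read 11.08, 11.14, 11.25, 11.00 and 11.17 in immature and 7.99, 8.18, 8.04, 8.43 and 7.93 in IVM oocytes. With it, EIF4E2 fell by 3.01 (SE 0.10, 8.06-fold, adjusted p = 2.39e-07), and it passed in all 10 fits that left out an array. Probe set B read 8.39, 8.80, 8.37, 8.15 and 8.43 in immature and 9.41, 9.21, 8.93, 9.39 and 9.61 in IVM oocytes. Here every IVM array was higher, by a difference of 0.88 that did not pass (SE 0.15, adjusted p = 0.00276) and was -0.05 when centred on the poly-A transcripts.

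Within each array, EIF4E2 probe set A minus B shifted by -3.89 between the groups (exact permutation p = 0.00794, adjusted 0.0115). A was lower and B higher on every IVM array, and their disagreement was known beforehand. This p could therefore only be the smallest possible, and it adds no support. The shift was the widest of the 8 gaps between probe sets of 1 gene, and it does not depend on the centring of the arrays. Which transcripts of EIF4E2 each probe set reads was not tested. EIF4E3, the third member of the family, differed by 0.51 with overlapping arrays (SE 0.13, adjusted p = 0.0185), or by -0.43 centred on the poly-A transcripts, and its other probe set hardly varied. The gap between EIF4E and EIF4E3 shifted by -1.20 (exact permutation p = 0.00794, adjusted 0.0115).

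EIF4G3, a scaffold that ties eIF4E to eIF3, rose with its varying probe set. It read 8.18, 8.31, 8.43, 8.32 and 8.32 in immature and 10.00, 9.92, 10.04, 9.66 and 10.26 in IVM oocytes. The groups were far apart, at a difference of 1.66 (SE 0.10, 3.17-fold, adjusted p = 7.96e-06) that was 0.73 when centred on the poly-A transcripts (adjusted p = 0.00118, no longer past 0.0001). The other probe set of EIF4G3 and that of EIF4G1 hardly varied. EIF4EBP1, an inhibitor that keeps eIF4E from eIF4G, read 6.82, 6.57, 6.89, 7.03 and 6.83 in immature and 7.50, 8.30, 8.28, 8.81 and 7.48 in IVM oocytes, all higher, with a difference of 1.25 that did not pass (SE 0.27, adjusted p = 0.00785).

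The helicases of the eIF4A family showed small differences. EIF4A1 was higher on all IVM arrays (11.96 to 12.44 against 11.46 to 11.85) by 0.58 (SE 0.10, adjusted p = 0.00312), or -0.36 when centred on the poly-A transcripts. EIF4A2 differed by 0.05 (SE 0.02, adjusted p = 0.136) and EIF4A3, a helicase of the exon junction complex, by -0.03 (SE 0.04, adjusted p = 0.647). The gap between EIF4A1 and EIF4A2 shifted by 0.52 (exact permutation p = 0.00794, adjusted 0.0115). EIF4B, which stimulates the helicase, had a difference of -0.61 (SE 0.37, adjusted p = 0.284), and IVM replicate 4 at 10.46 stood above the other IVM arrays at 8.69 to 9.04.

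**Figure D4:**
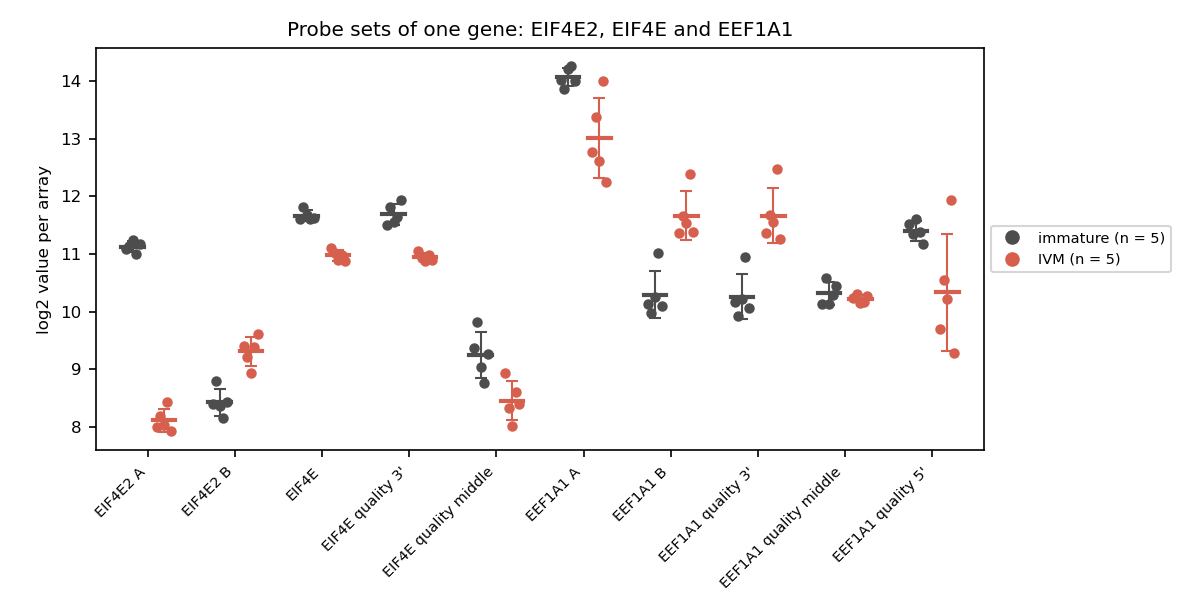
Values per array (y axis, log2) of the probe sets of EIF4E2, EIF4E and EEF1A1 (x axis), with the quality probe sets at the 3′ end, middle and 5′ end, in immature (grey, n = 5) and IVM oocytes (red, n = 5), with bars for the mean ± SD. The EIF4E2 probe sets move apart (-3.01 and 0.88, the latter -0.05 when centred on the poly-A transcripts), and EEF1A1 is higher at its 3′ end (1.40) and lower at its 5′ end (-1.07).

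The elongation factors gave no call at 0.0001 in limma (3 of the 7 varying probe sets had an unadjusted p under 0.05), and the SD of their IVM arrays reached 1.10. EEF1A1, the GTPase that brings tRNA to the ribosome, had probe sets of opposite sign. Probe set A read 14.03, 13.86, 14.21, 14.26 and 14.00 in immature and 12.78, 13.38, 12.62, 14.01 and 12.25 in IVM oocytes, a difference of -1.06 (SE 0.31, adjusted p = 0.0341). Probe set B read 10.13, 9.97, 10.26, 11.01 and 10.10 in immature and 11.36, 11.66, 11.54, 12.39 and 11.39 in IVM oocytes, a difference of 1.38 (SE 0.26, adjusted p = 0.00451). The groups of A overlapped through IVM replicate 4, those of B did not overlap, and the within-array gap shifted by -2.44 (exact permutation p = 0.00794, adjusted 0.0115). With the replicate block over varying probe sets B passed (adjusted p = 8.06e-05).

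The quality probe sets of EEF1A1 also split. At the 3′ end EEF1A1 differed by 1.40, in the middle by -0.09 and at the 5′ end by -1.07, and the gap between the 3′ and 5′ ends shifted by 2.47 (exact permutation p = 0.00794, adjusted 0.0115). Probe set B followed the 3′ quality probe set to within 0.13 on every array. The part of RNA integrity in this split was not tested, and EEF1A1 has processed pseudogenes whose share in its probe sets was not tested either. EEF1A2, the form of muscle and nerve, hardly varied.

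The exchange complex of EEF1A1 consists of EEF1B2, EEF1D and EEF1G. EEF1D read 11.69, 11.38, 12.12, 12.19 and 11.63 in immature and 8.56, 10.42, 9.70, 10.72 and 8.49 in IVM oocytes. All IVM arrays were lower, by a difference of -2.22 with a spread of 1.03 (SD) among them, and this did not pass (SE 0.48, adjusted p = 0.00861). EEF1B2 read 11.66, 10.54, 12.39, 12.89 and 11.88 in immature and 10.02, 11.89, 11.67, 12.45 and 10.10 in IVM oocytes, and overlapped (-0.65, SE 0.63, adjusted p = 0.528).

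EEF1G (-0.77, SE 0.44, adjusted p = 0.258) and EEF2, the translocase (-0.69, SE 0.53, adjusted p = 0.418), also overlapped. EEF2 read 11.31, 10.85, 11.70, 12.31 and 11.39 in immature and 10.08, 11.32, 10.72, 12.35 and 9.66 in IVM oocytes. EEFSEC, which delivers selenocysteine, differed by 0.11 with overlapping arrays (SE 0.05, adjusted p = 0.155).

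These elongation factors shared an order of arrays. For EEF1B2, EEF1D, EEF1G, EEF2, both EEF1A1 probe sets and EIF4B, immature replicate 2 was the lowest and replicate 4 the highest of the immature arrays, and IVM replicate 4 was the highest of the IVM arrays. In all, 13 of the 57 varying members had this order (22.8%), against 13.7% of all varying probe sets, a pattern chosen after its values were seen. The mean level of the cumulus and granulosa markers had the same order. It was 8.42, 7.28, 9.07, 9.40 and 8.23 on the immature arrays and 9.18, 9.91, 9.57, 10.82 and 8.63 on the IVM arrays. Single markers differed: VIM and GJA1 had this order with their varying probe sets, and others did not. Among the others, PTX3 was highest of its group on immature replicate 2 (5.20), and CYP19A1 lowest of its group on IVM replicate 4 (6.10). Immature replicate 4 also had the lowest mean level of the oocyte markers in its group (12.69), as did IVM replicate 4 (10.29). The part of cumulus RNA in the elongation factor values was not tested.

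Of the 4 modifiers and partners of the elongation factors, EEF2K and EEF1E1 varied with 1 probe set each and EEF1AKMT3 and EEF2KMT hardly varied. None passed 0.0001 in limma, and both of the 2 varying probe sets had an unadjusted p under 0.05. EEF2K, the kinase that inhibits EEF2, read 7.16, 7.08, 7.23, 7.72 and 7.12 in immature and 8.09, 9.11, 9.02, 9.28 and 8.47 in IVM oocytes, a difference of 1.53 (SE 0.25, adjusted p = 0.00195). EEF1E1, a small protein of the aminoacyl-tRNA synthetase complex, read 8.38, 7.69, 8.34, 8.12 and 7.87 in immature and 9.55, 9.50, 9.20, 9.32 and 9.67 in IVM oocytes, a difference of 1.37 (SE 0.16, adjusted p = 2.68e-04). Neither gene's groups overlapped, and both differences stayed positive under centring on the poly-A transcripts.

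**Figure D5:**
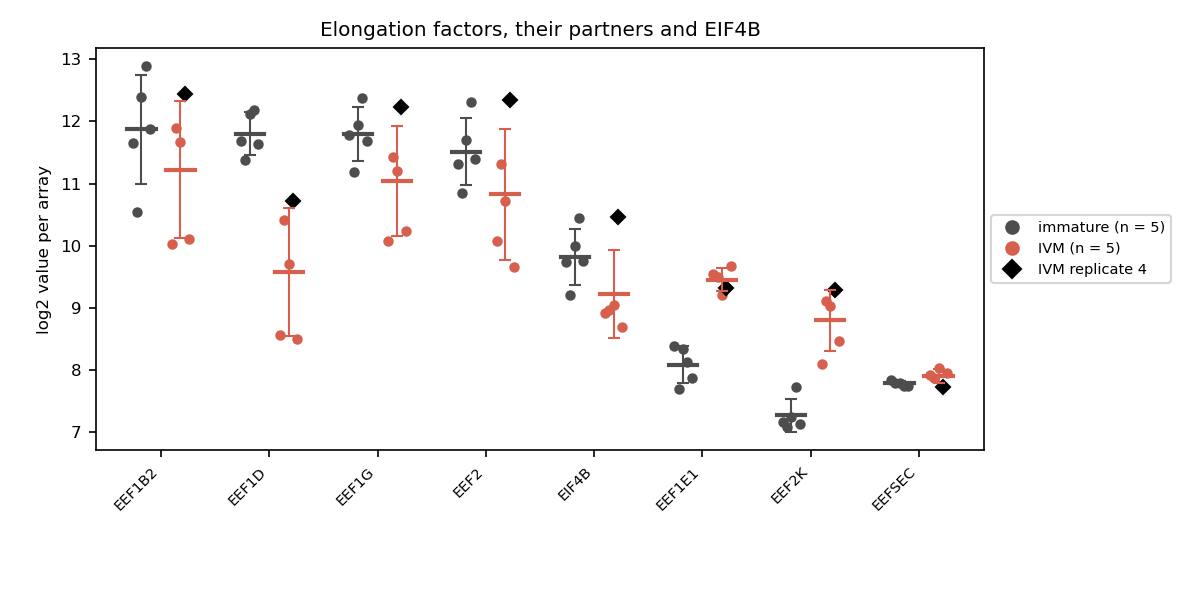
Values per array (y axis, log2) of the elongation factors other than EEF1A1, their partners and EIF4B (x axis) in immature (grey) and IVM oocytes (red, with replicate 4 as a black diamond), with bars for the mean ± SD, n = 5 per group. EEF1B2, EEF1G, EEF2 and EIF4B overlap between groups, with IVM replicate 4 at the level of the immature arrays. IVM replicate 2 also lies within the immature range for EEF1B2, EEF1G and EEF2, and IVM replicate 3 for EEF1B2 and EEF1G. EEF1D, EEF1E1 and EEF2K do not overlap.

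At the end of translation, EIF6 had the largest fall of all translation factors and the release factors differed less. EIF6, which keeps the large ribosomal subunit from joining the small one, read 11.27, 10.99, 11.04, 11.10 and 10.95 in immature and 7.42, 8.00, 7.78, 8.85 and 7.49 in IVM oocytes. It fell by 3.16 (SE 0.26, 8.95-fold, adjusted p = 4.22e-05). The highest IVM array, replicate 4, was still about 2 log2 units below the lowest immature array, but with 1 array left out EIF6 passed in 1 of 10 fits, the one without that array.

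GSPT1, the GTPase of stop codon release (eRF3a), read 10.82, 11.10, 10.66, 10.64 and 10.75 in immature and 9.75, 9.48, 9.38, 9.82 and 9.86 in IVM oocytes. All IVM arrays were lower, with a difference of -1.13 that did not pass at 0.0001 (SE 0.13, adjusted p = 2.27e-04). Its relative GSPT2 overlapped (0.07, SE 0.18, adjusted p = 0.854), and the gap between GSPT1 and GSPT2 shifted by -1.20 (exact permutation p = 0.00794, adjusted 0.0115). ETF1, the factor that reads the stop codon, was lower on all IVM arrays (7.67 to 7.96 against 8.01 to 8.09) by only -0.21 (SE 0.05, adjusted p = 0.0200). HBS1L, a GTPase that rescues stalled ribosomes, overlapped (0.07, SE 0.16, adjusted p = 0.823).

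Other genes that act on translation were counted beside the factors. Of 83 repressors, activators and modifiers of translation listed, 49 were on the array and 39 varied. At 0.0001, 4 of these genes fell and 3 rose, against 12.1% and 2.38% of all varying probe sets. At 0.05, 15 were lower and 16 higher, against 31.7% and 34.0%. The median was 0.15, against 0.18 for all varying probe sets. The genes that fell were DPH2 (-3.27) and DHPS (-2.85), which take part in making the modified residues of EEF2 and eIF5A, METAP2 (-3.05), a methionine aminopeptidase that also binds eIF2, and NACA (-2.68), a chaperone at the ribosome exit, which was named after its value was seen. The rises were PDCD4, an inhibitor of eIF4A, by 1.90, TIAL1, a protein of stress granules, by 1.50, and YBX1, a packaging protein of mRNA, by 1.13.

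Mitochondria translate with factors of their own. Of 15 such genes listed, 12 were on the array and 11 varied. In limma, 5 fell and 0 rose at 0.0001, 7 had a lower and 2 a higher probe set at 0.05 (MTRFR had both), against 12.1% and 2.38% of all varying probe sets at 0.0001 and 31.7% and 34.0% at 0.05. The median was -0.94, and the mean level of the list was 8.83 to 9.17 on the immature and 7.93 to 8.17 on the IVM arrays. TUFM, the mitochondrial counterpart of EEF1A1, fell by 3.27 (SE 0.24, adjusted p = 2.04e-05), and MRPL58, a ribosomal peptidyl-tRNA hydrolase, fell by 2.49 (SE 0.18, adjusted p = 2.10e-05). MTRFR, a rescue factor, fell by 5.12 with 1 probe set (SE 0.08, adjusted p = 1.89e-08) and differed by 1.47 with another that did not pass (adjusted p = 0.00443).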

How the data were processed

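Scans were read with GCOS, and the authors combined the probes of each set by FARMS with quantile normalization, which leaves deposited log2 values. FARMS shrinks probe sets without a shared signal towards a constant, and poly(A)-primed amplification reads the 3′ end and the tail as well as the amount. All 10 arrays entered, and the number of columns of per-sample values not used is 0. Experiments by qPCR, with a transcription inhibitor or in vivo were not analysed here, and sequences and coordinates were not used.

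Control probe sets (112) were kept out of the test. Platform symbols were updated by gene identifier for 13263 probe sets and by accession for 2, against RefSeq genes of ARS-UCD2.0, 27 kept the platform symbol, 86 had several genes and 10638 were unnamed here. The 2 probe sets annotated to EIF4EBP3 together with another gene were left out.

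IVM was compared with immature oocytes by lmFit and eBayes (limma 3.58.1, R 4.3.3), with Benjamini-Hochberg adjustment over 24016 probe sets. A call needed an adjusted p under 0.0001, a limit taken from the study's methods. The prior had 0.103 degrees of freedom, since 14556 probe sets hardly vary, and 1.86 over the varying ones. Controls and within-array gaps were compared by two-sided exact permutation over 252 splits, with 0.00794 the smallest p. Tables and plots used Python 3.11.15, pandas 2.3.3, numpy 2.4.6 and matplotlib 3.10.9. The fit was tested on simulated data, and precision is limited by the number of arrays.

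The members and lists were chosen with earlier results of these data known. Genes named by rule were those past the threshold, those with probe sets that split or oppose, EIF4E2, up to 2 others per role with the largest differences, the 5 probe sets with the highest mean, up to 3 rises and 3 falls of each other list, and members that hardly vary. Other members were named after their values were seen, to set subunits of a complex and related genes side by side. The gaps between related genes include members chosen this way, and the adjustment over pairs does not account for that choice.

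Per the study's methods a replicate is a day of collection, which pairs arrays of equal number. Deviations of such arrays from their group means correlated at 0.143, -0.347, 0.0872, 0.672 and 0.359 for replicates 1 to 5 across probe sets, and the number matched best only for 4 and 5. Alternatives were a fit over varying probe sets, trended robust eBayes, the replicate block, immature replicates 4 and 5 alone, other centrings, a filter on low means, an adjusted p of 0.05 and leaving out each array.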

Additional observations from a re-analysis of the deposited data

Results flagged for a closer look

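In 4 of 114 sets of 5 arrays, 1 array stood apart from the rest of its group by Dixon's ratio, where chance gives about 1 in 20. EIF4E3 was low on IVM replicate 3, at 8.26 against 8.41 to 8.45 on the other IVM arrays. The EEF1A1 probe set B was high on immature replicate 4, at 11.01 against 9.97 to 10.26. EEF2K was high on the same array, at 7.72 against 7.08 to 7.23. EIF4B was high on IVM replicate 4, at 10.46 against 8.69 to 9.04.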

How the results depend on the processing

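Over varying probe sets alone, 16 member probe sets were lower and 5 higher (16 and 5 genes), and all 10 calls were among them. With the replicate block, 0 were lower and 0 higher over all probe sets (0 and 0 genes), where 0 of all 24016 passed. Over varying ones the block gave 10 calls, with EIF4E lost and EEF1A1 gained. Immature replicates 4 and 5 alone against IVM gave 0 and 0 (0 and 0 genes), against 4 called of all 24016. The smallest adjusted p of a member was 3.61e-04, and 38 had an unadjusted p under 0.05. Over varying probe sets these arrays gave 3 lower and 0 higher (3 and 0 genes), EIF1AD, EIF2B4 and EIF4E2. At an adjusted p of 0.05, with probe sets that hardly vary included, 26 were lower and 20 higher (25 and 16 genes). The shares over all probe sets tested were 15.0% and 15.5%. Leaving out each array gave 4 to 10 lower and 2 to 3 higher probe sets, and 21 to 24 and 15 to 18 without overlap. Over all probe sets tested, these fits called 780 to 1415 in either direction. EIF1AD, EIF2B3, EIF2B4, EIF4E2, EIF4G3 and BZW2 passed each time. The poly-A difference then ran from 0.87 to 0.99 and the hybridization difference from 0.74 to 1.11, past 0.05 without immature replicate 4 (exact p = 0.0159) or 5 (exact p = 0.0317).

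Centring on the poly-A transcripts lowered the median of all probe sets by 0.94 and gave 53 lower and 1 higher (45 and 1 genes). These were 54 of the 78 member probe sets, against 18826 of all 24016 called in either direction under this centring. Without overlap, 32 were below and 3 above, and the share over all probe sets was not computed. The sign then turned for EIF2AK3 (-0.53), EIF4E2 probe set B (-0.05), DENR (-0.47), EIF4A1 (-0.36), EIF4A2 (-0.88), EIF4E3 (-0.43), EIF2AK1 (-0.27 and -0.41), HBS1L (-0.86), EIF2AK2 (-0.41), EIF2S3 (-0.76), BZW1 probe set B (-0.42), EEFSEC (-0.82), EIF1 (-0.36), GSPT2 (-0.87) and EIF5 probe set B (-0.13), by construction of that centring. EIF4A3 was 0.00 under quantile normalization, and without 1 array HBS1L ran from -0.03 to 0.16 and GSPT2 from -0.07 to 0.16. Median centring, quantile normalization, trended robust eBayes and the filter on low means kept all 10 calls.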
